A study of Mus musculus with 6 samples.

Results

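The genes described here are Cntfr and 8 genes of the receptor family that signals through gp130, namely Il6ra, Il11ra1, Il6st, Lifr, Osmr, Il27ra, Stat3 and Socs3. They are 9 of the 31017 genes in a deposited table of raw read counts. Cntfr was chosen by its large rise in ETV4 KO libraries in this comparison, so its values are given as a description with no test; the other 8 were taken for their place in the pathway. The table holds 6 poly(A) libraries of 4T1, a mouse mammary carcinoma line, grown in 3D collagen I gels that were digested with collagenase before RNA extraction. The 3 control libraries came from cells nucleofected with Cas9 and control guide RNAs, and the 3 ETV4 KO libraries from cells that received Cas9 and guides against Etv4, the gene of an ETS transcription factor. No treatment other than the nucleofection is named for either group. The 3 ETV4 KO libraries share 1 code in their names, and the labels give neither its meaning nor whether replicates came from separate cultures; p-values therefore rest on the spread of these libraries alone, which may be technical.

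Cytokines of the interleukin 6 family act through receptors built around gp130, the protein of Il6st. Ligand-binding subunits (encoded by Il6ra, Il11ra1 and Cntfr) hold the cytokine but do not signal themselves, and CNTFR is tethered to the membrane by a lipid anchor. Signalling needs gp130 in pairs, or gp130 with a partner such as LIFR, OSMR or the interleukin 27 receptor subunit. The CNTF receptor complex joins CNTFR with gp130 and LIFR. JAK kinases bound to these chains phosphorylate STAT3, which enters the nucleus, and SOCS3 is a feedback inhibitor that STAT3 induces and that binds gp130.

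Library totals were 22355015 to 29042569 counts, with 15515 to 15800 genes detected per library. Levels are CPM, read counts relative to the library total, scaled by TMM, which adjusts for library composition. On this scale 1 count was worth 0.0349 to 0.0440 CPM. The groups differed widely: 71.1% of the 12076 tested genes were called by edgeR's quasi-likelihood test (adjusted p under 0.05), 35.0% higher and 36.0% lower in ETV4 KO, and in 72.7% the values of the groups did not overlap. Etv4 mRNA was present in both groups, at 133.9 CPM ± 0.752 in controls and 89.8 CPM ± 2.44 in ETV4 KO (SD, n = 3 each). The 9 epithelial markers were all detected, with a summed level of 5226 to 5379 CPM in controls and 3749 to 3925 CPM in ETV4 KO. Of the 9, 7 were called lower and 2 higher. Their changes were uneven, with log2 fold changes from -5.92 for Cldn7 (191.9 to 3.16 CPM) to 0.47 for Cldn4 (229.3 to 317.2 CPM).

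The sequence before the starts of 3 of these genes is shown because the targeted factor belongs to the ETS family and the pathway ends in STAT3. RefSeq promoter windows (GRCm38.p6, 250 bases before to 50 after a start) were found for 8 of the 9 genes, 15 windows in all, with 6 for Cntfr; Il27ra had no entry. They were searched for CCGGAA, a form of ETS site, with its reverse complement TTCCGG. The second motif was the STAT motif TTCNNNGAA, which is its own reverse complement, and the 2 motifs can overlap. The first was in 14.9% and the second in 8.3% of all 32851 windows. Among the 8 genes Il6st alone had CCGGAA or its reverse complement, at 2 places, and Socs3 alone the STAT motif, at 1 place. Other forms of ETS site were not searched, so lacking CCGGAA is not lacking ETS-type letters. For example, the letters AGGAAG stand in windows of Cntfr, Il6ra, Il11ra1 and Stat3. The letters of neither motif were in any of the 6 Cntfr windows. The sequences, each on the strand of its gene, run up to the start for Cntfr (chr4:41696038-41696287, minus strand, the most upstream of the 6 Cntfr windows; both annotations place the end of the gene farther upstream) and Il6st (chr13:112463820-112464069, plus strand), and cover the motif with 10 bases on each side for Socs3 (chr11:117969502-117969530, minus strand). Capitals mark the motifs, which is why the Cntfr sequence has none.
Cntfr: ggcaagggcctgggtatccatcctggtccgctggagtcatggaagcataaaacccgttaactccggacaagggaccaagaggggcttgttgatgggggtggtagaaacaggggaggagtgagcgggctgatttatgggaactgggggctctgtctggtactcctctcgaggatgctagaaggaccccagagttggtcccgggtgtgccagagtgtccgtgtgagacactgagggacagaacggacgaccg
Il6st: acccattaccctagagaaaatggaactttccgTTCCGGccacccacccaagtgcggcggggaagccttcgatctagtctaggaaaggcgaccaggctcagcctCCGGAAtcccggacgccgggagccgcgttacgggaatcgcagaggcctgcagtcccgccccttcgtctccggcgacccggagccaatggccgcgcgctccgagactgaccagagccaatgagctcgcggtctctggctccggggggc
Socs3: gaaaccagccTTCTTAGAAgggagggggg
The ETS matches of Il6st lie 218 to 213 and 147 to 142 bases before the start. The STAT motif of Socs3 lies 154 to 146 bases before the start used for its window. Both annotations place the upstream end of Socs3 farther away, at position 117970047 in GENCODE M21 and 117970336 in RefSeq. The motif therefore lies within the annotated gene, with 0 of its bases in a GENCODE exon. These are matches of letters and say nothing of binding. The Cntfr windows ranged from 3 to 47 CpG dinucleotides, against a median of 7 over all windows.

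Cntfr was almost silent in control cells and clearly present in all ETV4 KO libraries. It had 4, 1 and 2 counts in control replicates 1, 2 and 3, or 0.172, 0.0369 and 0.0880 CPM. In ETV4 KO replicates 1, 2 and 3 it had 154, 124 and 121 counts, or 5.38, 5.01 and 5.06 CPM. The 3 ETV4 KO values were thus close together and far above the controls, where each value rests on at most 4 reads. The means were 0.0991 CPM ± 0.0684 and 5.15 CPM ± 0.201 (SD, n = 3 each). Over the groups 7 counts stood against 399, a scaled ratio of 53.8 with a 95% Clopper-Pearson interval of 25.9 to 134.8, which covers counting error only. The fitted log2 fold change was 5.68 (SE 0.29), the 5th highest of the 12076 tested genes; Cntfr passed the filter on low counts only through the ETV4 KO group. The size of the rise depends on the few control reads: it was 6.31 without control replicate 1 and 5.25 without control replicate 2.

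**Figure D1:**
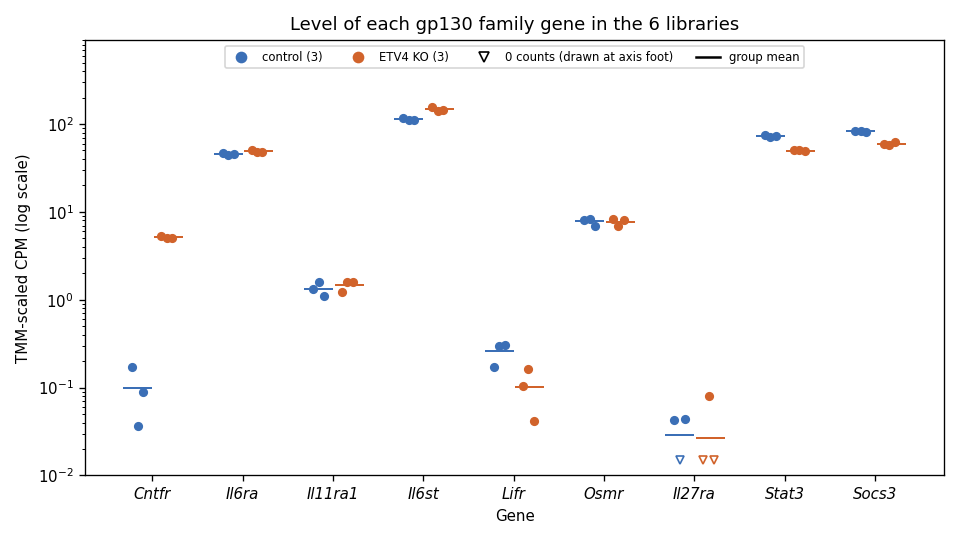
TMM-scaled CPM on a log axis for each gp130 family gene in the 3 control libraries (blue) and the 3 ETV4 KO libraries (orange), with bars at the group means and open triangles for libraries with 0 counts. Cntfr goes from a mean of 0.0991 CPM to 5.15 CPM, while Il6st, Il6ra, Stat3 and Socs3 stay between 44.4 and 155.7 CPM in every library.

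The other ligand-binding subunits did not show a change of that kind. Il6ra, the receptor for interleukin 6, had 47.0, 44.4 and 46.0 CPM in controls and 50.6, 48.5 and 48.1 CPM in ETV4 KO. The lowest ETV4 KO value lay just above the highest control value, and the log2 fold change was 0.10 (SE 0.046; adjusted p by edgeR = 0.0495). That call was lost in 10 of 15 alternatives, among them DESeq2 (adjusted p = 0.0956), library size alone (0.336), and the fits without control replicate 2 (0.192) or ETV4 KO replicate 1 (0.175). Il11ra1, the receptor for interleukin 11, had 1.34, 1.59 and 1.10 CPM in controls and 1.22, 1.57 and 1.59 CPM in ETV4 KO. Its groups overlapped, with a log2 fold change of 0.10 (SE 0.22; adjusted p by edgeR = 0.699), and the ratio of 112 to 99 counts had a 95% counting interval of 0.808 to 1.42. In GENCODE M21 the Il11ra1 gene overlaps Galt on the same strand, and Il11ra2, a near copy, was at 0 counts in all 6 libraries, so how reads were shared among these genes is uncertain.

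Of the signalling chains, Il6st was higher in ETV4 KO and Lifr was close to the limit of detection. Il6st had 117.1, 111.3 and 110.3 CPM in controls and 155.7, 142.5 and 142.9 CPM in ETV4 KO. The groups did not overlap, and the rise was 1.30-fold, a log2 fold change of 0.38 (SE 0.039; adjusted p by edgeR = 5.4e-10). Osmr, the oncostatin M receptor chain, had 8.10, 8.31 and 6.99 CPM in controls and 8.31, 6.95 and 8.03 CPM in ETV4 KO, values that overlapped fully. Its log2 fold change was -0.01 (SE 0.10; adjusted p by edgeR = 0.947).

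Lifr and Il27ra did not pass the filter on low counts and have no test beside the others. Lifr had 4, 8 and 7 counts in controls and 3, 4 and 1 in ETV4 KO. The 3 ETV4 KO levels (0.0418 to 0.162 CPM) lay below the 3 control levels (0.172 to 0.308 CPM), with a ratio of 0.398 and a 95% counting interval of 0.151 to 0.952. With no filter its edgeR adjusted p was 0.131 (unadjusted p = 0.0693), so a difference was not detectable at this depth. Il27ra had 2 counts in each group, spread as 1, 0 and 1 in controls and 0, 2 and 0 in ETV4 KO, a ratio of 0.945 (interval 0.0685 to 13.0). For a library with 0 counts the floor of 3 counts allows up to 0.105 to 0.132 CPM.

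The transcription factor of the pathway and its feedback inhibitor were both lower, as was the median of the genes around each of them on chromosome 11. With the median of those neighbours taken out, Stat3 was at -0.10 and Socs3 at 0.08 on the log2 scale, so the direction for Socs3 turned. Stat3 had 74.1, 70.6 and 72.8 CPM in controls and 50.1, 50.5 and 49.2 CPM in ETV4 KO, without overlap. That was 1.45-fold lower, a log2 fold change of -0.54 (SE 0.042; adjusted p by edgeR = 1.79e-12). Socs3 had 84.2, 82.6 and 81.2 CPM in controls and 59.4, 57.6 and 62.2 CPM in ETV4 KO, again without overlap. It was 1.38-fold lower, with a log2 fold change of -0.47 (SE 0.041; adjusted p by edgeR = 2.27e-11). In these bulk samples fewer cells with a transcript and less of it per cell cannot be told apart.

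Of the 6 tested genes other than Cntfr, 2 were called higher (Il6st and Il6ra), 2 lower (Stat3 and Socs3) and 2 were not called. This count of 4 is near the background of 71.1% and is no result about the family; their median log2 fold change was 0.05, against 0.00 for all genes tested. Tested against a fold change of 1.5 with edgeR's glmTreat, 0 of the 6 passed, and 0 had an unadjusted p under 0.05, where 13.9% of all genes passed.

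Compared per exon length, as RPKM (the CPM divided by exon length in kilobases), Socs3 led in both groups, with 28.6 RPKM ± 0.508 in controls and 20.7 RPKM ± 0.794 in ETV4 KO (SD, n = 3 each). Il6st followed, with 10.2 RPKM ± 0.331 and 13.2 RPKM ± 0.675. In controls Stat3 (7.61 RPKM ± 0.186) came before Il6ra (5.30 RPKM ± 0.150), whereas in ETV4 KO Il6ra (5.68 RPKM ± 0.157) came before Stat3 (5.24 RPKM ± 0.0693). Osmr (0.644 RPKM ± 0.0583 and 0.641 RPKM ± 0.0596) and Il11ra1 (0.300 RPKM ± 0.0546 and 0.327 RPKM ± 0.0465) were low in both groups; the exon length used for Il11ra1 depends on the annotation. Cntfr stood 7th in controls, at 0.0356 RPKM ± 0.0246, where it did not differ from Lifr (0.0240 RPKM ± 0.00695) beyond their spread. In ETV4 KO it stood 5th, at 1.85 RPKM ± 0.0722, above Osmr. Per length, Cntfr was then at 14.0% ± 0.174 of the Il6st level and 32.6% ± 0.464 of the Il6ra level, from 0.346% ± 0.229 and 0.664% ± 0.445 in controls (SD, n = 3 each). Lifr, at 0.00953 RPKM ± 0.00556 in ETV4 KO, did not differ from Il27ra (0.00770 RPKM ± 0.0133) beyond their spread.

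The chromosomes that hold these genes differed in the median log2 fold change of their tested genes, from -0.41 on chromosome 11 to 0.14 on chromosome 13. Each gene was therefore set beside the median of the other tested genes within 5 Mb. Stat3 and Socs3, like Etv4, lie on chromosome 11. The genes around Stat3 had a median of -0.44 (167 genes) and those around Socs3 -0.55 (153 genes). These are the medians behind the values of -0.10 and 0.08 given above. Around Il6st on chromosome 13 the median was 0.22 (26 genes), which left 0.17. Around Il6ra on chromosome 3 it was -0.24 (118 genes), which left 0.34. All 6 lay between the 5th and the 95th percentile of their neighbours. DNA copy number was not measured here, and its part in these differences was not tested.

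**Figure D2:**
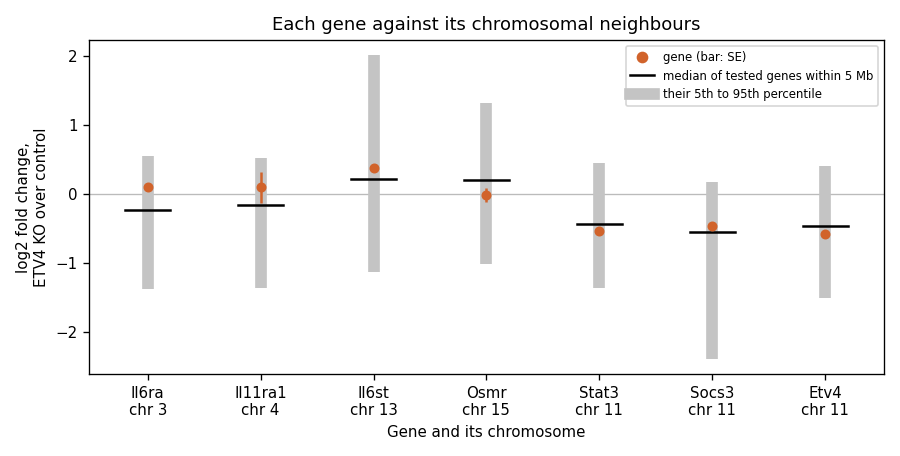
Log2 fold change (ETV4 KO over control) of 6 gp130 family genes and Etv4 (orange, bars SE), with the median (black) and the 5th to 95th percentile (grey) of the other tested genes within 5 Mb. Each gene lies inside the grey range, and Stat3, Socs3 and Etv4 lie near medians between -0.44 and -0.55.

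Cntfr was chosen by its large rise, so a place above its chromosomal neighbours follows from that choice and is given as a description. The gene lies on the minus strand of chromosome 4 (chr4:41657498-41697089, mm10, GENCODE M21). Its log2 fold change was above that of all 78 tested genes within 5 Mb, whose median was -0.16 and whose 95th percentile was 0.47. Within 500 kb of its start 12 other genes were tested, with log2 fold changes between -1.91 and 0.46. Of these 2 were called higher and 8 lower, beside 35.0% and 36.0% of all tested genes. The nearest tested gene on the upstream side was Il11ra1, whose GENCODE start lies 2.90 kb from that of Cntfr on the opposite strand; RefSeq places the Il11ra1 start at position 41760443, farther away. On the downstream side it was Fam219a, 127.6 kb away by its start, with 14.7 CPM in controls, 14.0 CPM in ETV4 KO; the log2 fold change was -0.08 (SE 0.075; adjusted p by edgeR = 0.354). Neither of these neighbours was called. By the RefSeq start of Il11ra1, the nearest tested upstream gene would instead be Rpp25l, 16.4 kb away by its start. Rpp25l was called lower (log2 fold change -0.29, SE 0.087, edgeR adjusted p = 0.00428).

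**Figure D3:**
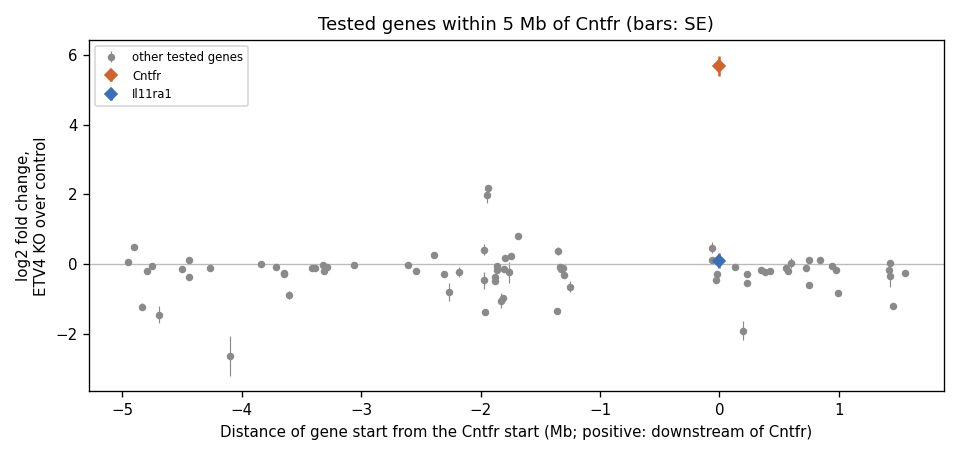
Log2 fold change (ETV4 KO over control, bars SE) of the tested genes within 5 Mb of Cntfr against the distance of their starts from the Cntfr start in Mb. Cntfr is at 5.68, Il11ra1 beside it is at 0.10, and the median of the 78 other genes is -0.16.

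By level and change together, the genes most like Cntfr were Tnxb (tenascin X, a matrix protein), Pgbd5 (a transposase-derived gene), Serpinb9b (a serpin), Trpv2 (a cation channel) and Mmp1b (a matrix metalloproteinase). Likeness was the Euclidean distance of log2(CPM + 0.5) over the 6 libraries, which was 1.22 for Tnxb and 1.59 for Mmp1b. Their means went from 0.0290 to 0.444 CPM in controls to 2.60 to 8.38 CPM in ETV4 KO, and they lie on chromosomes other than that of Cntfr. Serpinb9b and Mmp1b have close relatives among which reads can be split.

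The ligands of the family were present in part. Of 12 genes in the list 6 were tested; 2 were called higher, 1 lower and 3 were not called, with a median log2 fold change of 0.12. The 3 calls among 6 stand beside the 71.1% of all tested genes that were called, so the count is no result about the ligands. Clcf1 encodes a cytokine that acts through CNTFR. Clcf1 was abundant, with 256.3, 248.8 and 237.3 CPM in controls and 279.7, 262.2 and 259.5 CPM in ETV4 KO. Its groups lay close but apart, with a log2 fold change of 0.11 (SE 0.036; adjusted p by edgeR = 0.00687); 5 of 15 alternatives lost the call, among them library size alone and the fits without control replicate 3 or ETV4 KO replicate 1. Ctf1, which encodes cardiotrophin 1, was lower, from 4.75 CPM ± 0.269 to 3.55 CPM ± 0.158 (SD, n = 3 each; log2 fold change -0.42, edgeR adjusted p = 0.00475). The 3 tested ligands that were not called, named after their values were seen, were Lif, Il11 and Cntf. Lif, the LIFR ligand, was at 122.7 CPM ± 2.47 and 120.5 CPM ± 1.55 (edgeR adjusted p = 0.521), and Cntf itself was at 0.680 CPM ± 0.11 and 0.745 CPM ± 0.0815 (edgeR adjusted p = 0.700). Il11 was at 0.863 CPM ± 0.249 and 1.17 CPM ± 0.281 (edgeR adjusted p = 0.156). Il6, also named after its values were seen, had 0 to 2 counts in each library.

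The kinases and adaptors below the receptors were mostly lower. All 11 genes in the list were tested and called, 9 lower and 2 higher, with a median log2 fold change of -0.35, where 71.1% of all tested genes were called and 36.0% were lower. With local medians taken out, 3 of the 9 lower genes (Stat5b, Shc1 and Grb2) turned to positive values of 0.12, 0.03 and 0.06; Stat5b and Shc1 were named after their values were seen. Jak2, a kinase that binds gp130 and other cytokine receptors, had 182.6, 174.2 and 184.9 CPM in controls and 83.4, 78.4 and 83.5 CPM in ETV4 KO, a log2 fold change of -1.14 (SE 0.038; adjusted p by edgeR = 1.77e-21). Every ETV4 KO value of Jak2 was below every control value, and its chromosomal neighbours had a median of 0.00. Tyk2, another kinase of the family, was at -0.68 (SE 0.063) and the adaptor Grb2 at -0.46 (SE 0.035). Grb2 lies on chromosome 11, where its neighbours had a median of -0.52. Sos1, the exchange factor that Grb2 brings to the membrane, was higher at 0.62 (SE 0.041), beside a local median of 0.29. Tested against a fold change of 1.5, only Jak2 and Stat5a of the 11 passed, both lower.

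Among other inhibitors of the pathway 4 of 12 tested genes were called higher and 4 lower, with a median of -0.04. That is near the 35.0% and 36.0% of all tested genes, so the count sets the list apart in neither direction; with local medians taken out, 3 of the 8 called genes changed sign. Socs5 rose from 44.0 CPM ± 2.13 to 74.7 CPM ± 0.838 and the phosphatase gene Ptpn6 from 18.2 CPM ± 1.09 to 32.5 CPM ± 2.26 (SD, n = 3 each). Their log2 fold changes were 0.77 (SE 0.044) and 0.84 (SE 0.063), and that of Socs4 was 0.27 (SE 0.057). Socs2, which is induced by STAT5 and restrains growth hormone signalling, fell from 9.79 CPM ± 0.690 to 4.40 CPM ± 0.566, a log2 fold change of -1.16 (SE 0.11; adjusted p by edgeR = 1.13e-10). Socs1, Cish, Pias1 and Ptpn2 were not called.

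Genes listed as known targets of STAT3 were more often higher than lower. Socs3, which STAT3 also induces, was not in this list and was called lower, as given above. Of 24 genes 19 were tested; 11 were called higher and 4 lower, with a median log2 fold change of 0.16, against 35.0% and 36.0% of all genes. The split was 9 to 6 with library size alone, 10 to 6 with upper-quartile factors, 10 to 6 without ETV4 KO replicate 2 and 9 to 5 without control replicate 1. With local medians taken out, 3 of the 15 called genes changed sign. Most of them answer to many other factors. Vegfa, an angiogenic growth factor, rose from 33.1 CPM ± 2.10 to 66.8 CPM ± 2.50, the survival gene Bcl2l1 from 85.6 CPM ± 3.05 to 128.2 CPM ± 2.16, and Myc from 150.8 CPM ± 3.27 to 206.0 CPM ± 4.14 (SD, n = 3 each). Vegfa had a log2 fold change of 1.02 (SE 0.050) beside a local median of 0.34. Cd274, which encodes the checkpoint ligand PD-L1, went the other way, from 4.07 CPM ± 0.833 to 0.618 CPM ± 0.151 and a log2 fold change of -2.72 (SE 0.23; adjusted p by edgeR = 8.22e-12). The acute-phase genes Saa3, Hp, Lcn2 and Fgg and the gene Batf did not pass the filter, each with a mean of at most 0.192 CPM in either group. Tested against a fold change of 1.5, 2 of the 19 passed, 1 higher and 1 lower.

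In a list of other cytokine receptors of the same structural class, few genes passed the filter. The list includes Il11ra2, the near copy of Il11ra1. It leaves out Il4ra, a receptor counted among the STAT3 targets, which was called higher (log2 fold change 0.60, SE 0.053). Of 20 genes 7 had 0 counts in all libraries and 5 were tested, all of them called, 4 lower and 1 higher, with a median of -0.36, beside 71.1% of all tested genes called and 36.0% lower. Il12rb1, a chain of the interleukin 12 and 23 receptors, had 10.7, 11.0 and 9.63 CPM in controls and 3.11, 3.19 and 2.59 CPM in ETV4 KO (log2 fold change -1.82, SE 0.11, edgeR adjusted p = 1.37e-14). Il3ra, the interleukin 3 receptor chain, was near 1 CPM or lower, at 1.33 CPM ± 0.122 and 0.208 CPM ± 0.0858 (log2 fold change -2.65, SE 0.34). Il13ra1, of the interleukin 13 receptor, was at -0.36 (SE 0.066), and Crlf2, the receptor chain for TSLP, rose by 0.56 (SE 0.063).

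**Figure D4:**
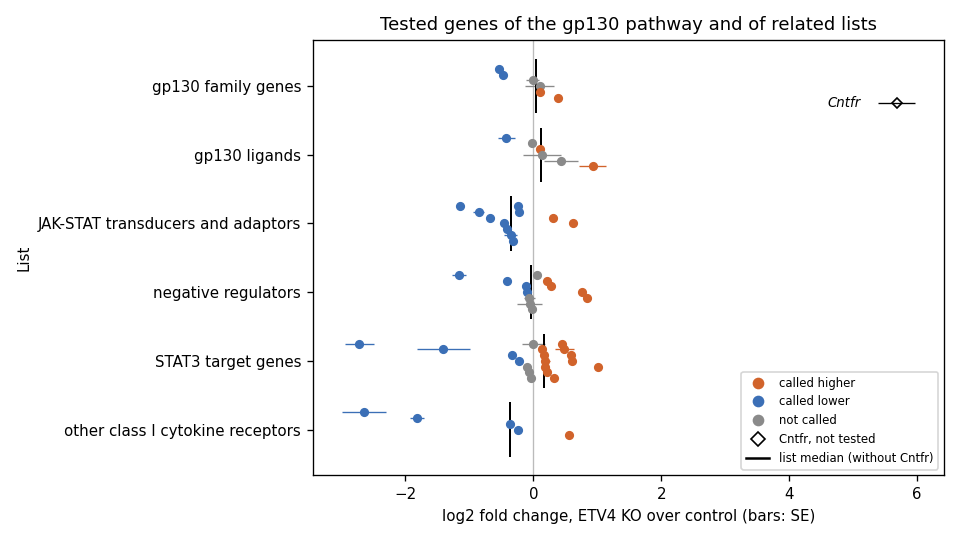
Log2 fold change (ETV4 KO over control, bars SE) of each tested gene of the gp130 family and of 5 related lists; colours show whether a gene was called by edgeR, and black bars are list medians. Apart from Cntfr at 5.68 (open diamond, not tested) the family lies between -0.54 and 0.38, and 9 of 11 kinases and adaptors lie below 0.

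CNTFR is best known from neurons, so markers of other cell types were read in the same libraries. The neuronal and glial list summed to 45.2 to 46.4 CPM in controls and 45.8 to 47.6 CPM in ETV4 KO, most of it from Mbp (43.2 and 45.0 CPM), and 4 of its 8 genes (Snap25, Rbfox3, Syt1 and Sox10) were at 0 counts in all 6 libraries. The fibroblast list summed to 9.87 to 11.7 CPM and 13.0 to 14.6 CPM, nearly all from Pdgfra, which was called higher (log2 fold change 0.32, SE 0.083, edgeR adjusted p = 0.00121), with Lum and Thy1 at 0; the part of Pdgfra-expressing cells in the results was not tested. The leukocyte list summed to 10.3 to 11.0 CPM and 9.75 to 12.0 CPM, with Adgre1 and Cd3e at 0, and the endothelial list to at most 0.604 CPM. Of the leukocyte list 2 genes were tested (Cd68 and Cd79a) and 0 called, and no endothelial marker had enough counts to be tested. Among untested leukocyte genes, named after their values were seen, Csf1r had 7, 21 and 11 counts in controls and 4, 1 and 0 in ETV4 KO, and Ptprc had 1, 4 and 3 against 5, 5 and 6.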

How the data were processed

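The authors deposited 1 table of raw counts per gene symbol for 6 libraries, with no normalization; that they are counts was read from the values, whole numbers with different totals. Per the submitters' processing notes the tools were featureCounts, STAR 2.7.9a, FastQC 0.11.9 and R 4.1.1, with the builds hg38 and mm10 and no role or order; per the labels' protocols the library kit was stranded. The annotation, strand setting and handling of multi-mapping reads: not given in the sources used here.

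Counts were analysed with edgeR 4.0.16 in R 4.3.3: filterByExpr (minimum count 10, minimum total 15), TMM, glmQLFit and glmQLFTest on the group, with Benjamini-Hochberg adjustment over 12076 genes and a call at an adjusted p under 0.05. The SE of a log2 fold change is its size over the square root of the F statistic. Steps were tested on simulated data. Exon lengths and positions were matched by symbol in GENCODE M21, whose build GRCm38 equals mm10. Alternatives were RLE and upper-quartile factors, library size only, DESeq2 1.42.0, limma-voom (limma 3.58.1), no filter, a minimum CPM of 1 in 3 samples, leaving out single samples, a replicate block, glmTreat against 1.5-fold, and local medians subtracted. Same-numbered samples deviated together with r of 0.214, 0.217 and -0.00947, so the numbers were not taken to pair them. Chi-square per degree of freedom was 2.12 to 5.12 within groups, above sampling noise.

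The members and lists were chosen with earlier results of these data known. Named genes are the 9 members, Etv4, up to 3 called genes per list in its commoner direction and 1 in the opposite one, taken by smallest adjusted p, the 5 genes nearest to Cntfr by distance, and its nearest tested neighbours; other genes were named after their values were seen. Protein sequences were not analysed here; a few genes under this rule are left out.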

Additional observations from a re-analysis of the deposited data

How the results depend on the processing

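Across RLE and upper-quartile factors, library size alone, DESeq2, limma-voom, both other filters, the replicate block and each left-out sample, every count of called genes stayed within 1.5 times its value. Testing against a fold change of 1.5 cut each one: to 1684 of 8582 for all genes, 0 of 4 for the gp130 family genes, 0 of 3 for the ligands, 2 of 11 for the kinases and adaptors, 3 of 8 for the inhibitors, 2 of 15 for the STAT3 targets and 2 of 5 for the other receptors, by construction of a stricter test. With the replicate block 8882 genes were called, and 4 of the family genes, as without it; the numbers are shared by label alone. Control and ETV4 KO samples 1 and 2 matched best with their own number and samples 3 did not. The log2 fold change of Cntfr ranged from 5.25 to 6.31 over the left-out samples, both ends set by the few control reads. Some signs were not fixed. Il11ra1 ranged from -0.019 to 0.25 over the left-out samples, with the sign turned by dropping control replicate 3. Osmr ranged from -0.078 to 0.066, positive when control replicate 1 or 2 or ETV4 KO replicate 2 was dropped, and was at 0.00056 with no filter. Socs3 was at 0.076 with the local median subtracted, since genes around it were lower as well. For Il11ra1 and Osmr the cause was not tested. Among list genes that were not called, Bcl3, Cish and Bcl6 kept their sign in 6, 13 and 14 of 15 alternatives. With local medians subtracted, a step chosen for the lists after seeing the data, 8 of 11 called kinases and adaptors, 5 of 8 inhibitors, 12 of 15 STAT3 targets, 3 of 3 ligands and 5 of 5 other receptors kept their sign. Stat3, Socs3 and Il6st were called in 14 of 15 alternatives, all but the test against 1.5-fold, and Il6ra in 5 of 15. Depth limits Lifr, Il27ra, Il11ra1 and the control level of Cntfr.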
